A study of Oryza sativa with 8 samples.

Results

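Leaves of rice plants overexpressing OsbZIP83 were compared with leaves of the non-transformant (NT), gene by gene and by function. OsbZIP83 encodes a transcription factor of the basic leucine zipper (bZIP) family. The leaf samples were 4 of the 8 RNA-seq samples of the study, and the other 4 were roots of the same genotypes. The overexpressors were represented by 1 leaf library each of lines 13, 15 and 19 (b83OX-13, b83OX-15, b83OX-19). NT leaves were a single library, n = 1. All were of the cultivar Tsukinohikari, grown in hydroponics with sufficient iron, so iron supply was the same in every sample. The promoter driving the transgene, the age of the plants and the hour of harvest are given neither in the labels nor in the design text. The labels do not say whether a library came from 1 plant or a pool. Because NT leaves had no replicate, the 3 lines are the only measure of spread in leaves, and what sets the lines apart and what sets this 1 NT sample apart cannot be told apart.

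Expression was measured by Lasy-Seq, an RNA-seq library method, and is given in reads per 1000000 (RPM), a unit not adjusted for gene length. The depth, estimated from the value of 1 read, was about 35700000, 29400000 and 25000000 gene reads in leaves of lines 13, 15 and 19, against 22600000 in NT leaves. Across genes the 3 lines correlated with each other at 0.977 to 0.981 and with NT at 0.968, 0.951 and 0.956 for lines 13, 15 and 19, on the log2(RPM + 1) scale. The summed level of 9 leaf mesophyll marker genes was 90434, 89022 and 75343 RPM in lines 13, 15 and 19, against 95541 RPM in NT. Of 10 root markers, RCc3, TIP2;1, PIP2;3 and LSI2 were listed at 0 in every leaf library, and the summed level of the list was 27.02, 56.5 and 26.3 RPM in the lines, against 12.3 RPM in NT. Most of that sum came from the potassium transporter OsHAK1 (Os04g0401700), at 19.99, 49.7 and 23.5 RPM in the lines, against 8.47 RPM in NT, which did not pass the test (adjusted p = 0.0798). In bulk leaf RNA, fewer cells of a type and less RNA per cell cannot be told apart.

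Leaf cells of rice devote much of their messenger RNA to photosynthesis, whose nuclear genes are under the control of light, the circadian clock and hormones. The clock is a set of transcription factors that repress one another in turn over the day, and abscisic acid, jasmonate and cytokinin act through receptors, kinases and transcription factors that adjust growth and stress responses. The bZIP family includes factors that act in abscisic acid responses and, as the TGA subgroup in Arabidopsis, in salicylate-dependent defence.

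OsbZIP83 (Os12g0152900, chromosome 12) was measured at 75.3, 100.5 and 94.98 RPM in the lines, against 1.62 RPM in NT. Values of the lines are given in the order 13, 15, 19. All 3 lines lay far above NT. The mean over the lines was 90.3 ± 13.2 RPM (SD, n = 3), with a log2 fold change of 5.11 ± 0.19 (SE) and an adjusted p of 2.67e-05. Fold changes here are on the log2(RPM + 1) scale, which understates changes of low genes, and p-values come from limma over all genes tested, adjusted by Benjamini and Hochberg's method, and called at 0.05.

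Of 46120 genes, 33443 were above 0 in a leaf library and the 21991 whose average across all 8 libraries reached 1 RPM were tested. In leaves 834 of these, 3.79%, passed the threshold: 585 were higher in the lines (2.66%) and 249 lower (1.13%), and 4615 had an unadjusted p under 0.05. In every one of the 834 all 3 lines lay on the same side of NT, and in 501 the change was at least 1 on the log2 scale. Passing the test favours genes with all lines on 1 side of NT, so for a named gene that trait is no separate support. The direction depended on the scaling of the libraries: with trimmed-mean (TMM) rescaling 463 genes were higher (2.11%) and 364 lower (1.66%), 3.76% in all, so the share of higher genes was 56.0%, against 70.1% without it. With no filter on low values 336 genes were higher and 356 lower, so the larger direction turned. Counted without a test and on RPM itself, 410 of 13515 genes with a leaf mean of at least 5 RPM (3.03%) differed from NT by 2-fold or more in each line, 311 of them higher and 99 lower, and 287 of the 410 also passed the test. The test borrows its spread from roots as well: fitted on the 4 leaf libraries alone, 16 genes passed, and 3256 had an unadjusted p under 0.05.

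Set against the 3.79% of all tested genes, the functional themes differed in how many of their members changed. Of genes tested, 1.42% changed in the chloroplast and photosynthesis lists (6 of 423) and 0.840% in the protein synthesis and proteasome lists (4 of 476). Of those 423, 238 were in the plastid gene expression list, where 1 changed (0.420%), so that list weighs heavily on the photosynthesis share. The share was 5.85% in chromatin (10 of 171), 6.75% in hormone lists (32 of 474), 5.99% in stress lists (121 of 2019) and 12.5% in clock and photoperiod lists (8 of 64). In the senescence list it was 10.5% (4 of 38). Metabolism (4.55%, 33 of 726) and cell division (4.44%, 6 of 135) lay near the share of all tested genes. With quantile normalization these were 3.31% and 0.741%, against 3.16% of all tested genes. Under TMM rescaling, quantile normalization and with any 1 line left out, the photosynthesis share was 0.946% to 2.84% and the protein synthesis share 0.840% to 2.52%, both below the share of all tested genes in each setting, whereas the clock, hormone and stress shares lay above it in each. The chromatin share fell below it without line 15 (3.51%, against 3.91% of all tested genes). In direction, 9 of the 10 chromatin genes were lower in the lines, while 70.1% of all changed genes were higher. Of the 32 hormone genes 25 were higher, a share near that of all changed genes. In all, 219 of 4397 tested members of 58 lists passed. Counts of single lists were small: in 42 of the 58 the count moved by more than 1.5 times, and in 15 the larger direction turned, in at least 1 of the same 5 settings. The members were found by symbol and by words of the annotation.

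**Figure D1:**
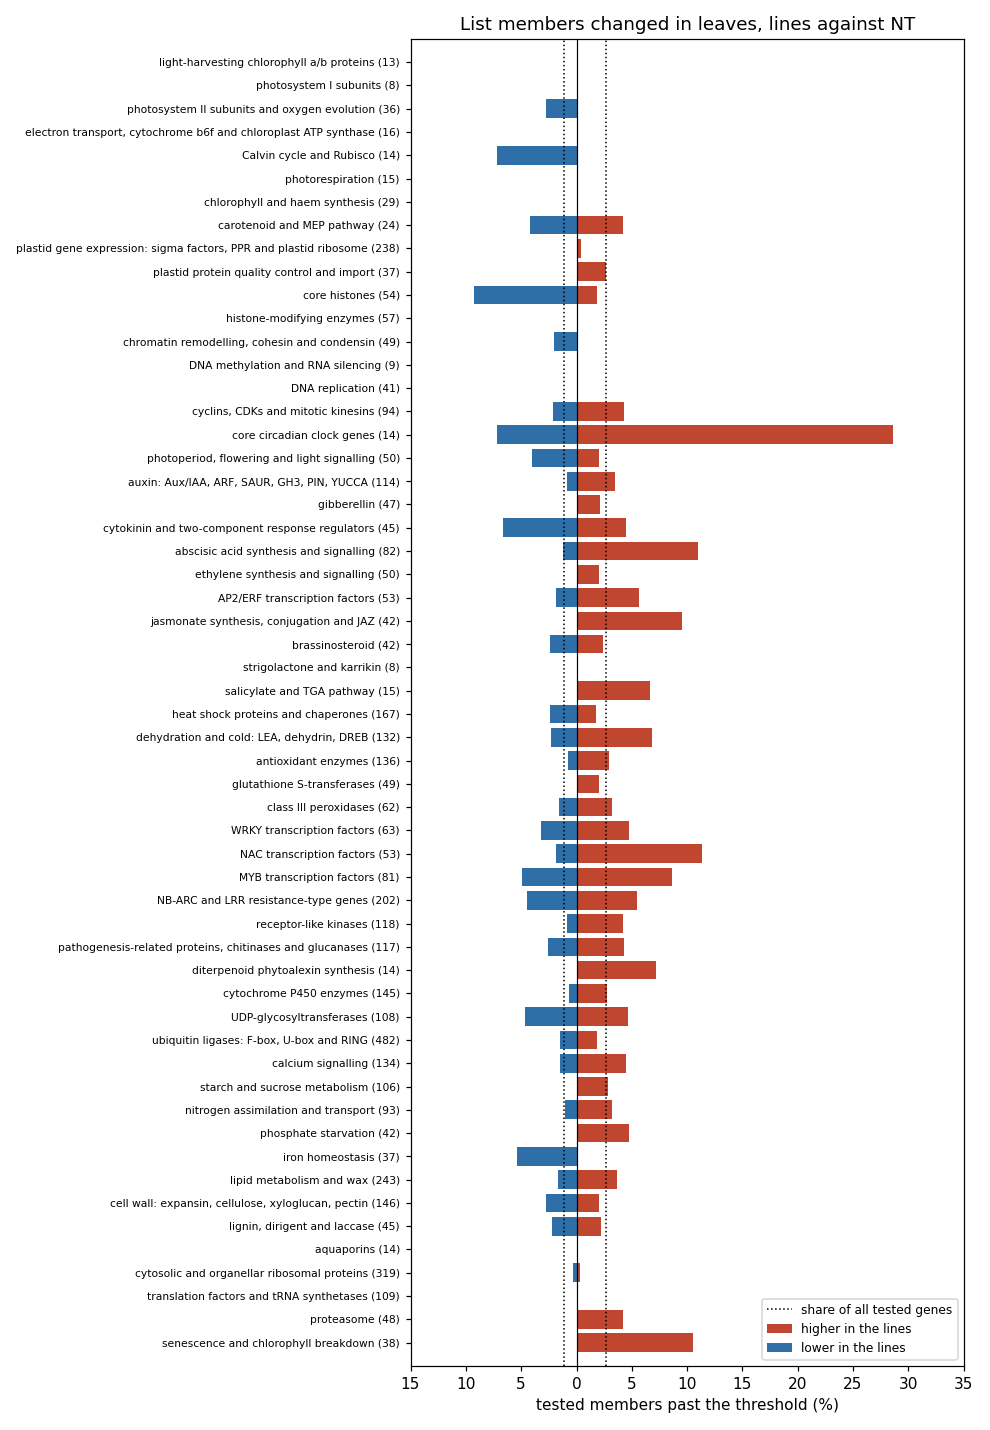
Percentage of tested members past the threshold in leaves for 56 functional lists with at least 8 tested members (number of tested members in brackets), with genes higher in the lines drawn to the right of 0 and lower ones to the left. The dotted lines mark the share of all tested genes, 2.66% higher and 1.13% lower; the clock list reaches farthest to the right and the core histones farthest to the left.

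Genes of the light-harvesting antenna and the photosystems were mostly a little below NT in the lines, and 1 of them passed the test. The light-harvesting chlorophyll a/b proteins, which bind the pigments that collect light, had 0 of 13 tested members past the threshold (limma), and 4 at an unadjusted p under 0.05. All 13 had negative log2 fold changes, from -0.84 to -0.08 with a median of -0.32, against a median of 0.09 over all tested genes. Of the 13, 11 were listed at 0 in all root libraries. The negative sign held for all 13 with TMM rescaling and for 12 with quantile normalization. Taken line by line, the median difference from NT was -0.27, -0.15 and -0.48 in lines 13, 15 and 19. CAB1R, the member with the highest RPM, was at 13633, 12334 and 10377 RPM in the lines, against 13298 RPM in NT, so that its lines lay on both sides of NT. CAB2R was at 5994, 7111 and 5175 RPM in the lines, against 7771 RPM in NT (adjusted p = 0.262).

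Photosystem I, which reduces ferredoxin, had 0 of 8 subunits past the threshold (limma), 1 at an unadjusted p under 0.05 and a median of -0.22. Its subunit gene PSAD was at 3745, 3561 and 3068 RPM in the lines, against 3346 RPM in NT. Photosystem II, which splits water, had 1 of 36 members lower and a median of -0.20. That member, Os03g0333400, similar to the photosystem II 11 kD protein, was at 492, 517 and 598 RPM in the lines, against 850.2 RPM in NT (log2 fold change -0.67 ± 0.13, adjusted p = 0.0409), and was listed at 0 in all root libraries. Photosystem II genes past the threshold numbered 0 higher and 2 lower with TMM rescaling, 1 and 0 without line 13, and 0 and 0 without line 15. The electron transport and ATP synthase list, with 0 of 16 past the threshold (limma), 3 at an unadjusted p under 0.05 and a median of 0.03, was close to the median of all genes. Plastocyanin (PC), the copper protein that carries electrons to photosystem I, was at 8747, 8809 and 8466 RPM in the lines, against 8255 RPM in NT. Os03g0333400 did not pass without line 13 (adjusted p = 0.0617) or without line 15 (0.0775).

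In carbon fixation 1 of 14 genes passed, the Rubisco activase gene OsRcaII (Os11g0707000), whose product removes inhibitory sugar phosphates from Rubisco, at 1434, 1382 and 1153 RPM in the lines, against 2198 RPM in NT (log2 fold change -0.74 ± 0.14, adjusted p = 0.0341). The 3 lines did not overlap with NT, and the gene passed without any 1 of the lines. It was listed at 0 in all root libraries, as were 15 of the 834 changed genes and 276 of the tested ones; for such genes the root libraries add no spread, which makes the error smaller, and with the 4 leaf libraries alone its adjusted p was 0.305. It also did not pass with a pseudocount of 0.1 RPM (adjusted p = 0.0522), with no filter (0.0636), with no trend (0.0524) or with deducted reads added back (0.132). Among the small subunit genes of Rubisco, RbcS3 was at 27017, 27466 and 26559 RPM in the lines, against 27382 RPM in NT. RbcS5 was at 9239, 8371 and 6084 RPM in the lines, against 10772 RPM in NT, and neither passed. Photorespiration and chlorophyll synthesis had 0 of 15 and 0 of 29 members past the threshold (limma), with 2 and 3 at an unadjusted p under 0.05. Chloroplast rRNA made up 73.2%, 74.7% and 74.5% of the rRNA values in lines 13, 15 and 19, against 71.1% in NT, and its part in these results was not tested.

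**Figure D2:**
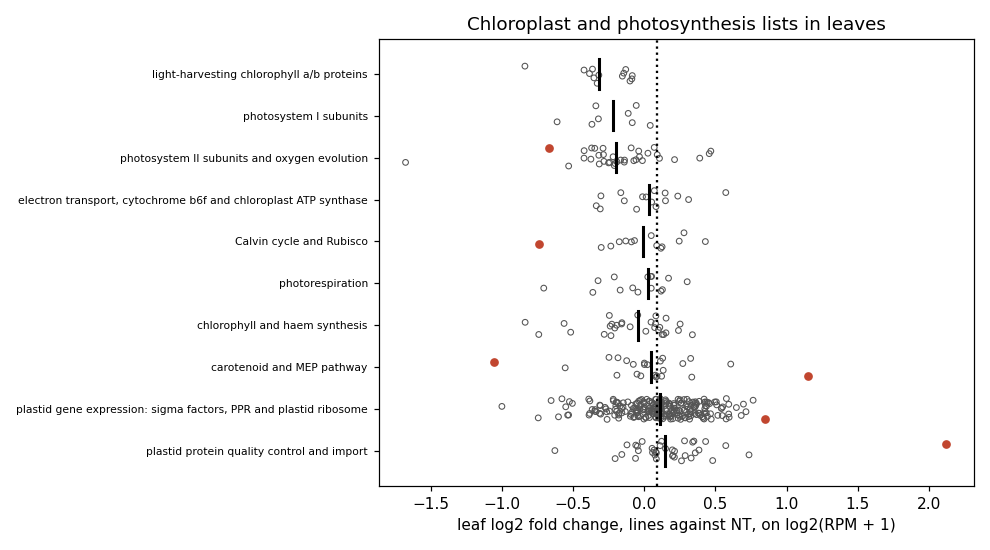
Leaf log2 fold change, lines against NT, on the log2(RPM + 1) scale, for every tested member of 10 chloroplast lists. Filled points passed the threshold, open ones did not, the black bar is the median of a list and the dotted line that of all tested genes (0.09); the light-harvesting and photosystem lists lie to the left of it.

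Carotenoids protect the photosystems and are the precursors of abscisic acid. In the carotenoid and MEP pathway list 2 of 24 genes changed, in opposite directions. PSY2, a phytoene synthase that makes the first carotenoid, was at 29.5, 25.9 and 25.2 RPM in the lines, against 56.8 RPM in NT (log2 fold change -1.05 ± 0.13, adjusted p = 0.00919). DSM2, a beta-carotene hydroxylase, was at 12.8, 18.6 and 16.6 RPM in the lines, against 6.55 RPM in NT (log2 fold change 1.15 ± 0.20, adjusted p = 0.0245). In both the 3 lines lay on 1 side of NT. CLPD1, a regulatory chaperone of the chloroplast Clp protease, was the 1 of 37 genes of plastid protein quality control to change, at 35.7, 70.4 and 65.96 RPM in the lines, against 11.9 RPM in NT (log2 fold change 2.12 ± 0.35). Among 238 genes of the plastid gene expression list, such as pentatricopeptide repeat proteins and plastid ribosomal proteins, 1 changed. These members were matched by words of the annotation, and whether each acts in plastids was not checked. Plastid gene expression members numbered 0 higher and 0 lower with quantile normalization, 1 and 3 without line 13, and 0 and 0 without line 19. Quality control members numbered 2 higher and 1 lower without line 13 and 0 and 0 without line 19. DSM2 (adjusted p = 0.0644) and CLPD1 (0.0629) did not pass without line 19.

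Senescence and chlorophyll breakdown genes had 4 of 38 members higher and 0 lower, with a median of 0.29. OsRCCR1, a reductase of red chlorophyll catabolite, was at 26.6, 33.1 and 37.1 RPM in the lines, against 16.4 RPM in NT (log2 fold change 0.92 ± 0.18, adjusted p = 0.0409). STR6 (Os04g0249600), similar to the senescence-associated protein DIN1, was at 23.1, 19.3 and 19.3 RPM in the lines, against 5.47 RPM in NT (log2 fold change 1.73 ± 0.19). The third was Os02g0324700, similar to a senescence-associated protein, at 266, 238 and 239.8 RPM in the lines, against 128 RPM in NT. The fourth, OsFBK12, an F-box protein with Kelch repeats, was at 88.3, 75.4 and 70.7 RPM in the lines, against 40.02 RPM in NT. Senescence genes past the threshold numbered 6 higher and 1 lower without line 13. OsRCCR1 did not pass without line 15 (adjusted p = 0.0690) or without line 19 (0.0644).

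Among chromatin genes, 9 of the 10 that changed were lower in the lines. Linker histone H1 binds the DNA between nucleosomes and compacts chromatin, and all 3 tested H1 genes of 4 in the list fell in the lines. Os04g0253000 (H1) was at 231, 248 and 247 RPM in the lines, against 552 RPM in NT (log2 fold change -1.19 ± 0.13, adjusted p = 0.00578). Os03g0799000 was at 92.3, 98.6 and 109 RPM in the lines, against 226 RPM in NT (log2 fold change -1.17 ± 0.12, adjusted p = 0.00483). Os07g0184800, similar to an H1 variant, was at 79.1, 81.3 and 65.3 RPM in the lines, against 135 RPM in NT (log2 fold change -0.84 ± 0.14, adjusted p = 0.0251). In each the 3 lines lay within a narrow range, well below NT. All 3 passed without any 1 of the lines, with TMM rescaling and with quantile normalization, each time against the same NT library. Not all of them passed with no filter, and no H1 gene passed with the leaf libraries alone. In roots their log2 fold changes were -0.13 ± 0.13, 0.21 ± 0.12 and 0.07 ± 0.14, none past the threshold, and the difference between leaf and root effects passed for Os03g0799000 (-1.38 ± 0.17, adjusted p = 0.0356).

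The core histones, which form the nucleosome itself, had 5 of 54 tested members lower and 1 higher, with a median of -0.14 and 38 negative values. Os10g0539500, similar to histone H4, was at 141, 142 and 146 RPM in the lines, against 211 RPM in NT (log2 fold change -0.56 ± 0.10, adjusted p = 0.0261) and passed without any 1 of the lines. Another histone H4 gene, Os07g0549900, was at 11.5, 14.2 and 12.3 RPM in the lines, against 25.1 RPM in NT, and the H2A gene Os12g0530000 at 3.45, 3.04 and 3.17 RPM in the lines, against 5.98 RPM in NT. Of the H2B genes, Os01g0153300 was at 61.5, 61.3 and 62.2 RPM in the lines, against 87.5 RPM in NT. Os05g0574300, the other, was at 11.1, 11.3 and 12.3 RPM in the lines, against 17.97 RPM in NT. The 1 member above NT was Os01g0846900, annotated only with a histone fold, at 19.6, 19.6 and 20.3 RPM in the lines, against 13.9 RPM in NT. Without lines 13, 15 and 19 in turn, 5, 2 and 3 core histones were lower and 0 higher. Os12g0530000 did not pass without line 15 (adjusted p = 0.0556) or without line 19 (0.0646). Os01g0153300 did not pass without line 13 (adjusted p = 0.0633), without line 15 (0.0691) or without line 19 (0.0559). Os05g0574300 did not pass without line 13 (adjusted p = 0.0679), without line 15 (0.0749) or without line 19 (0.0557). Os01g0846900 did not pass without line 13 (adjusted p = 0.0609), without line 15 (0.0706), without line 19 (0.0660) or with TMM rescaling (0.0916). Os07g0549900 (adjusted p = 0.0565) did not pass without line 19.

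Beyond the histones, 1 of 49 genes of chromatin remodelling, cohesin and condensin changed. This was Os09g0551600, similar to the HMGd1 protein of the high mobility group, a class of proteins that bend DNA, at 96.5, 80.1 and 62.4 RPM in the lines, against 202 RPM in NT (log2 fold change -1.35 ± 0.21, adjusted p = 0.0171), and it passed without any 1 of the lines. HMGB1, another gene of the group, was at 2728, 2758 and 2518 RPM in the lines, against 2840.04 RPM in NT (adjusted p = 0.794). None of 57 histone-modifying enzymes and 9 genes of DNA methylation and RNA silencing passed (limma), with 7 and 2 at an unadjusted p under 0.05. OsSET18, a SET domain protein, was at 236, 184 and 167 RPM in the lines, against 356 RPM in NT (adjusted p = 0.0550).

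**Figure D3:**
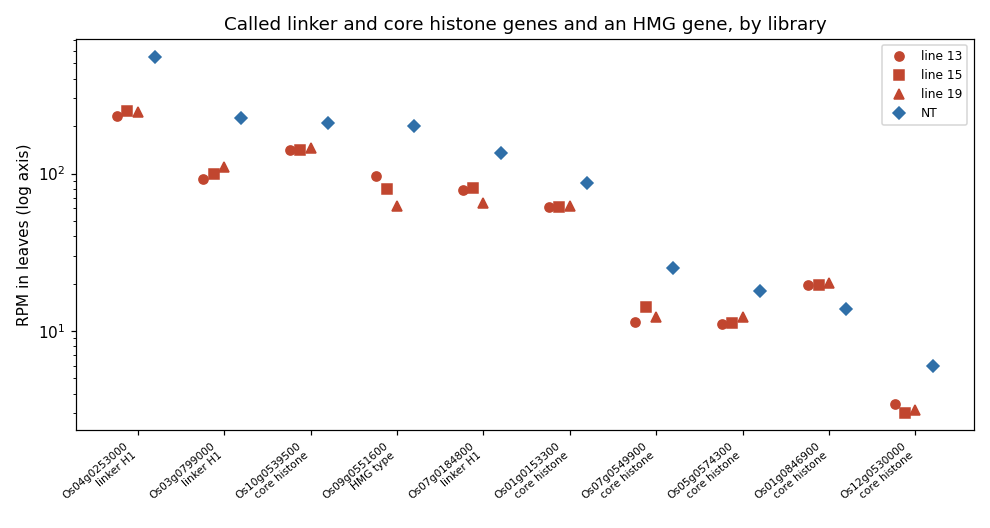
RPM of the 3 linker histone H1 genes, 6 core histone genes and 1 HMG gene past the threshold in leaves, on a log axis, with the 3 lines as red symbols left of the blue NT symbol. In 9 of the 10 genes all 3 lines lie below NT, and in Os01g0846900 above it.

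Genes of cell division were looked at beside the histones, since core histones are made mainly in dividing cells. DNA replication genes had 0 of 41 members past the threshold (limma), 3 at an unadjusted p under 0.05 and a median of 0.06. The summed level of 15 markers of dividing cells was 34.9, 28.4 and 33.3 RPM in lines 13, 15 and 19, against 29.2 RPM in NT, with 0 of 14 tested markers past the threshold (limma) and 1 at an unadjusted p under 0.05. Only 3 of the 14 had a leaf mean of at least 1 RPM, so a change in most of them could hardly be seen. Whether the share of dividing cells differed was not tested. The clamp of DNA polymerase, PCNA, was at 9.73, 8.72 and 9.77 RPM in the lines, against 9.79 RPM in NT. Among 94 cyclins, cyclin-dependent kinases, tubulins and kinesins, 4 were higher and 2 lower, a balance that turned in other settings. Those past the threshold numbered 1 higher and 2 lower with TMM rescaling, 0 and 1 with quantile normalization, 3 and 4 without line 13, and 0 and 1 without line 19. Os08g0547500, a kinesin gene, was at 21.2, 16.8 and 14.8 RPM in the lines, against 40.2 RPM in NT (log2 fold change -1.16 ± 0.19).

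Of 14 core clock genes 5 passed the threshold, 4 higher and 1 lower. OsPCL1, a GARP factor of the evening complex, was at 591, 689 and 622 RPM in the lines, against 289.8 RPM in NT (log2 fold change 1.12 ± 0.18, adjusted p = 0.0208). OsELF3.2, of the same complex, was at 29.4, 29.7 and 27.4 RPM in the lines, against 15.4 RPM in NT (log2 fold change 0.86 ± 0.12, adjusted p = 0.0110). Os04g0583900, annotated as similar to the LHY protein and given the symbol LHY, was at 3.2, 3.95 and 5.33 RPM in the lines, against 1.34 RPM in NT (log2 fold change 1.12 ± 0.23, adjusted p = 0.0454); it is not the locus with the symbols OsLHY and CCA1, which did not pass. In these genes every line was above NT. OsPRR1, the rice counterpart of the Arabidopsis evening repressor TOC1, was at 111, 108 and 110.3 RPM in the lines, against 66.01 RPM in NT (log2 fold change 0.72 ± 0.11, adjusted p = 0.0142). FKF1 (Os11g0547000), known as a blue-light receptor with an F-box, was the 1 gene lower, at 34.9, 36.96 and 38.8 RPM in the lines, against 84.2 RPM in NT (log2 fold change -1.17 ± 0.13, adjusted p = 0.00534). OsELF3.2, OsPRR1 and FKF1 passed without any 1 of the lines. Clock genes past the threshold numbered 2 higher and 1 lower without line 19. Os04g0583900 did not pass without line 15 (adjusted p = 0.0697) or without line 19 (0.0515). OsPCL1 (adjusted p = 0.0510) did not pass without line 19.

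The other 9 clock genes did not pass, with log2 fold changes from -0.28 to 0.20. GIGANTEA (GI) was at 568, 577 and 583 RPM in the lines, against 505 RPM in NT. OsPRR95 was at 337, 427 and 394 RPM in the lines, against 395 RPM in NT. PRR73 was at 179, 168 and 143 RPM in the lines, against 197 RPM in NT. Os08g0157600, the locus with the symbols CCA1 and OsLHY, a morning MYB factor, was at 11.8, 11.8 and 14.7 RPM in the lines, against 12.5 RPM in NT. OsPRR37, listed as Hd2, was at 98.3, 93.99 and 85.4 RPM in the lines, against 94.6 RPM in NT. FKF1 and OsPRR1 also changed in roots, with log2 fold changes of -1.29 ± 0.13 and 0.65 ± 0.11, and both lie in chromosome segments described at the end. The hour of harvest was not given, and its part in these levels was not tested.

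In the photoperiod, flowering and light signalling list 1 of 50 genes was higher and 2 were lower. DTH2, a CONSTANS-like promoter of heading, was at 41.99, 42.2 and 54.1 RPM in the lines, against 14.2 RPM in NT (log2 fold change 1.62 ± 0.22, adjusted p = 0.0118). OsBBX25, a B-box zinc finger protein, was at 38.6, 40.5 and 30.2 RPM in the lines, against 126 RPM in NT (log2 fold change -1.77 ± 0.20, adjusted p = 0.00578). OsCCT35, similar to the CONSTANS-like protein CO9, was at 4.45, 4.05 and 2.93 RPM in the lines, against 8.72 RPM in NT (log2 fold change -1.03 ± 0.21, adjusted p = 0.0414). DTH2 and OsBBX25 passed without any 1 of the lines. OsCCT35 (adjusted p = 0.0597) did not pass without line 15.

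Abscisic acid, the hormone of drought and seed dormancy, had 9 of 82 genes higher and 1 lower, with a median of 0.16. ABA8OX1, which starts the breakdown of abscisic acid, was at 113, 83.2 and 65.2 RPM in the lines, against 19.9 RPM in NT (log2 fold change 2.04 ± 0.26, adjusted p = 0.00928). The SnRK2 kinases, which carry the signal, included SAPK6, at 52.1, 62.002 and 63.9 RPM in the lines, against 27.5 RPM in NT (log2 fold change 1.07 ± 0.16, adjusted p = 0.0169). SAPK9 was at 103, 115 and 139 RPM in the lines, against 56.2 RPM in NT (log2 fold change 1.06 ± 0.20, adjusted p = 0.0350). SAPK2 was at 124, 124 and 112 RPM in the lines, against 74.7 RPM in NT (log2 fold change 0.67 ± 0.11, adjusted p = 0.0193). In all 4 genes the lines lay above NT without overlap. Of the protein phosphatases 2C, a large family of which 1 clade switches such kinases off, 3 were above NT. OsPP2C25 was at 3.15, 3.42 and 2.86 RPM in the lines, against 1.08 RPM in NT. OsPP2C72 was at 36.6, 31.6 and 35.2 RPM in the lines, against 20.6 RPM in NT. OsPP2C06 was at 61.2, 57.6 and 59.4 RPM in the lines, against 39.9 RPM in NT. REM4.1, a remorin, was at 233, 223 and 220.2 RPM in the lines, against 128 RPM in NT. BZIP12, a bZIP factor of the abiotic stress response, was at 17.4, 21.7 and 23.5 RPM in the lines, against 10.9 RPM in NT. The kinases carry the signal, whereas the hydroxylase removes the hormone, and the annotation does not say to which clade the phosphatases belong. The 1 gene lower was ASR2, of a family induced by abscisic acid and water deficit, at 509, 460.2 and 414 RPM in the lines, against 783 RPM in NT (log2 fold change -0.77 ± 0.14, adjusted p = 0.0276), and in roots its log2 fold change was -2.07 ± 0.14 (adjusted p = 0.000431). Without lines 13, 15 and 19 in turn 9, 8 and 7 members were higher, and with TMM rescaling 6. SAPK9 did not pass without line 15 (adjusted p = 0.0522) or without line 19 (0.0570). BZIP12 did not pass without line 15 (adjusted p = 0.0784), without line 19 (0.0859) or with TMM rescaling (0.0532). SAPK2 (adjusted p = 0.0613) and OsPP2C06 (0.0708) did not pass with TMM rescaling.

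Jasmonate, a lipid-derived hormone of wounding and defence, had 4 of 42 genes higher and 0 lower. LOX1, a lipoxygenase, was at 10.9, 11.7 and 10.96 RPM in the lines, against 4.68 RPM in NT (log2 fold change 1.10 ± 0.11, adjusted p = 0.00348). OPR1, similar to 12-oxophytodienoic acid reductase, was at 24.3, 20.2 and 31.3 RPM in the lines, against 9.87 RPM in NT (log2 fold change 1.25 ± 0.23, adjusted p = 0.0309). TIFY11C, a JAZ repressor of jasmonate responses, was at 41.8, 61.1 and 41.7 RPM in the lines, against 16.4 RPM in NT (log2 fold change 1.48 ± 0.23, adjusted p = 0.0189). OPR4, another gene of the reductase family, was at 6.62, 15.6 and 6.97 RPM in lines 13, 15 and 19 and was listed at 0 in NT (adjusted p = 0.00881). All 4 passed without any 1 of the lines. OPR4 also passed in roots (adjusted p = 0.000881), and for LOX1 the leaf effect differed from the root effect (1.33 ± 0.15, adjusted p = 0.0273).

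Cytokinin, which promotes cell division and delays senescence, had 2 of 45 two-component genes higher and 3 lower, and 1 of those higher was the clock gene OsPRR1. The A-type response regulators, which damp the cytokinin response, included RR6 at 5.33, 3.85 and 6.18 RPM in the lines, against 26.5 RPM in NT (log2 fold change -2.19 ± 0.29, adjusted p = 0.0101). RR10 was at 45.8, 32.001 and 27.3 RPM in the lines, against 105 RPM in NT (log2 fold change -1.58 ± 0.34, adjusted p = 0.0496). RR6 passed without any 1 of the lines. PHP2, similar to a phosphotransfer protein, was at 0.803, 1.59 and 1.07 RPM in the lines, against 5.32 RPM in NT (log2 fold change -1.57 ± 0.25, adjusted p = 0.0198). RR21, a B-type regulator of the kind that activates transcription, was above NT, at 30.2, 29.3 and 28.9 RPM in the lines, against 15.5 RPM in NT (log2 fold change 0.88 ± 0.11, adjusted p = 0.00852). The list without lines 13, 15 and 19 in turn had 2, 2 and 3 members higher and 6, 2 and 1 lower. RR10 did not pass without line 15 (adjusted p = 0.0806), without line 19 (0.103) or with TMM rescaling (0.0512). PHP2 (adjusted p = 0.0592) did not pass without line 19.

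**Figure D4:**
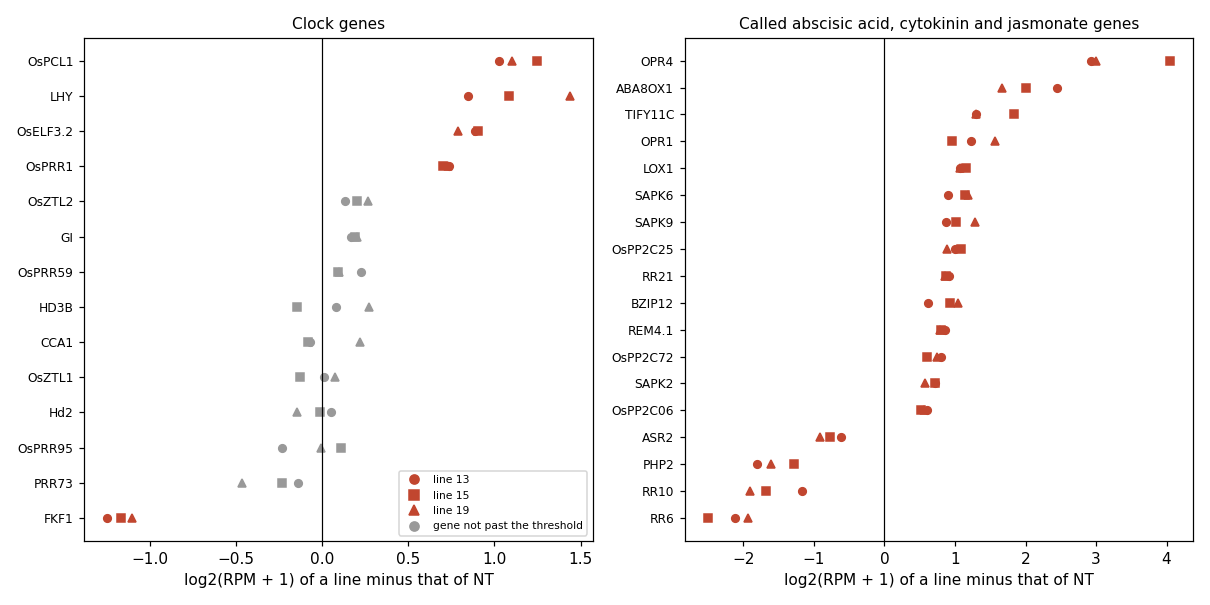
Difference between each line and NT in log2(RPM + 1) for the 14 core clock genes (left) and for the 18 abscisic acid, cytokinin and jasmonate genes past the threshold apart from OsPRR1 (right), with 1 symbol per line. Red genes passed the threshold and grey ones did not; in every red gene the 3 lines lie on the same side of 0.

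Among auxin genes 4 of 114 were higher and 1 lower (4.39%, near the 3.79% of all tested genes). The auxin response factor ARF2 was at 117, 99.9 and 122 RPM in the lines, against 66.5 RPM in NT (log2 fold change 0.75 ± 0.13, adjusted p = 0.0262). It was above NT in every line. Of the SAUR genes, small genes induced by auxin, SAUR57 was higher, at 3.09, 5.72 and 4.26 RPM in the lines, against 1.25 RPM in NT. SAUR56 was lower, at 62.4, 76.3 and 72.2 RPM in the lines, against 122 RPM in NT. Auxin genes past the threshold numbered 1 higher and 2 lower with quantile normalization, 6 and 3 without line 13, 7 and 3 without line 15, and 1 and 0 without line 19. Gibberellin, ethylene, brassinosteroid and salicylate lists had shares of 2.13%, 2.0%, 4.76% and 6.67%. Of their genes 1 of 47, 1 of 50, 1 of 42 and 1 of 15 were higher and 0, 0, 1 and 0 lower. In the salicylate list this was OsNPR3 (Os03g0667100), of the family of salicylate receptors and co-activators that work with TGA factors in Arabidopsis, at 9.01, 12.5 and 9.29 RPM in the lines, against 2.76 RPM in NT (log2 fold change 1.57 ± 0.20, adjusted p = 0.00944), and it passed without any 1 of the lines. The ethylene receptor gene ERS1 was at 57.95, 59.1 and 61.4 RPM in the lines, against 41.5 RPM in NT. Ethylene genes past the threshold numbered 0 higher and 0 lower with TMM rescaling, 0 and 0 with quantile normalization, 0 and 0 without line 13, 0 and 1 without line 15, and 0 and 1 without line 19. Salicylate genes past the threshold numbered 2 higher and 2 lower without line 13, 2 and 0 without line 15, and 1 and 1 without line 19. None of 8 strigolactone and karrikin genes passed (limma), with 2 at an unadjusted p under 0.05. SAUR57 did not pass without line 19 (adjusted p = 0.0986) or with TMM rescaling (0.0509). ERS1 did not pass without line 13 (adjusted p = 0.0572), without line 15 (0.0705), without line 19 (0.0693) or with TMM rescaling (0.0903). SAUR56 (adjusted p = 0.0629) did not pass without line 19.

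Among stress-related transcription factors, NAC genes had 6 of 53 tested members higher and 1 lower, with a median of 0.22. NAC121 was at 11.3, 25.3 and 14.4 RPM in the lines, against 3.24 RPM in NT (log2 fold change 2.01 ± 0.36, adjusted p = 0.0309). OMTN1 was at 6.66, 12.2 and 8.47 RPM in the lines, against 2.24 RPM in NT (log2 fold change 1.61 ± 0.28, adjusted p = 0.0265). NAC12 was at 4.51, 4.17 and 3.95 RPM in the lines, against 1.3 RPM in NT (log2 fold change 1.18 ± 0.16, adjusted p = 0.0113). NAC121 and OMTN1 were highest in line 15, whereas NAC12 was even across the lines and passed without any 1 of them. NAC8 was at 58.98, 55.5 and 57.04 RPM in the lines, against 30.8 RPM in NT (log2 fold change 0.87 ± 0.10, adjusted p = 0.00573). ONAC003 was the 1 NAC gene lower, at 8.11, 6.97 and 6.73 RPM in the lines, against 13.6 RPM in NT. NAC genes past the threshold numbered 4 higher and 0 lower without line 19. ONAC003 did not pass without line 15 (adjusted p = 0.0718) or without line 19 (0.0829). NAC121 (adjusted p = 0.0691) and OMTN1 (0.0670) did not pass without line 19.

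MYB genes had 7 of 81 members higher and 4 lower. OsJAmyb, named for its induction by jasmonate, was at 13.1, 25.5 and 18.4 RPM in the lines, against 3.84 RPM in NT (log2 fold change 1.999 ± 0.32, adjusted p = 0.0189). Os07g0137000 was at 8.61, 6.87 and 5.92 RPM in the lines, against 0.712 RPM in NT (log2 fold change 2.23 ± 0.26, adjusted p = 0.00715). Os01g0874300, similar to the barley factor MybHv5, was lower, at 20.7, 21.98 and 13.8 RPM in the lines, against 51.99 RPM in NT (log2 fold change -1.45 ± 0.27, adjusted p = 0.0340). WRKY genes, a family of defence and senescence factors, had 3 of 63 members higher and 2 lower. WRKY8 was at 26.1, 33.5 and 34.6 RPM in the lines, against 7.93 RPM in NT (log2 fold change 1.85 ± 0.22, adjusted p = 0.00799), and its leaf effect differed from that in roots (2.305 ± 0.32, adjusted p = 0.0456). WRKY25 was lower, at 7.78, 7.97 and 6.4 RPM in the lines, against 21.1 RPM in NT (log2 fold change -1.40 ± 0.19, adjusted p = 0.0125), and so was WRKY68, at 37.1, 37.2 and 29.6 RPM in the lines, against 77.1 RPM in NT. The median of the WRKY list was 0.09, 0.50 and 0.17 above NT in lines 13, 15 and 19. Among AP2/ERF genes 3 of 53 were higher and 1 lower. EREBP1, a factor of defence and abiotic stress, was at 147, 141 and 149 RPM in the lines, against 86.3 RPM in NT (log2 fold change 0.75 ± 0.10, adjusted p = 0.0106). ERF101 (Os04g0398000), counted with the pathogenesis-related genes and not among these 53, was at 30.7, 32.8 and 25.1 RPM in the lines, against 3.43 RPM in NT (log2 fold change 2.78 ± 0.25, adjusted p = 0.00218). MYB genes past the threshold numbered 5 higher and 2 lower without line 15 and 5 and 1 without line 19. WRKY genes past it numbered 6 higher and 3 lower without line 15. AP2/ERF genes past it numbered 1 higher and 1 lower without line 13, 1 and 2 without line 15, and 1 and 2 without line 19. OsJAmyb (adjusted p = 0.0585) did not pass without line 19.

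The dehydration, salt and cold list had 9 of 132 genes higher and 3 lower. HAK5, a high-affinity potassium transporter, was at 3.68, 11.5 and 5.81 RPM in the lines, against 0.411 RPM in NT (log2 fold change 2.38 ± 0.47, adjusted p = 0.0400), with line 15 the highest. TPKB, a potassium channel of the vacuole, was at 3.54, 4.65 and 3.68 RPM in the lines, against 1.45 RPM in NT. CDPK4, a calcium-dependent protein kinase, was at 40.9, 50.7 and 38.3 RPM in the lines, against 23.5 RPM in NT. SALT, a lectin gene induced by salt, was lower, at 19.6, 22.1 and 24.6 RPM in the lines, against 50.4 RPM in NT (log2 fold change -1.16 ± 0.18, adjusted p = 0.0189), and so was OsMIOX, a myo-inositol oxygenase, at 4.52, 4.47 and 4.15 RPM in the lines, against 8.54 RPM in NT. Members past the threshold numbered 3 higher and 4 lower with quantile normalization and 3 and 1 without line 19. Calcium signalling had 6 of 134 genes higher and 2 lower, a balance that turned with the scaling. Its changed genes numbered 3 higher and 6 lower with TMM rescaling, 3 and 5 with quantile normalization, and 4 and 0 without line 19. Among its kinases CDPK13 was at 102, 111 and 96.6 RPM in the lines, against 50.9 RPM in NT (log2 fold change 1.001 ± 0.11, adjusted p = 0.00567). CDPK24 was at 78.7, 75.4 and 71.01 RPM in the lines, against 42.5 RPM in NT (log2 fold change 0.81 ± 0.10, adjusted p = 0.00918). Both were above NT in every line. CIPK18, a kinase controlled by calcineurin B-like calcium sensors, was at 4.63, 2.7 and 2.94 RPM in the lines, against 11.5 RPM in NT (log2 fold change -1.52 ± 0.27, adjusted p = 0.0276). TPKB did not pass without line 15 (adjusted p = 0.0583) or without line 19 (0.0705). HAK5 (adjusted p = 0.0901), OsMIOX (0.0633) and CIPK18 (0.0707) did not pass without line 19. CDPK4 (adjusted p = 0.0741) did not pass with TMM rescaling.

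Heat shock proteins and chaperones had 3 of 167 members higher and 4 lower, and small heat shock genes went both ways. The share changed, 4.19%, was near the 3.79% of all tested genes. The changed members numbered 7 higher and 2 lower without line 15. HSP16.9A was at 2.96, 2.3 and 2.43 RPM in the lines, against 0.472 RPM in NT (log2 fold change 1.27 ± 0.16, adjusted p = 0.00947). HSP17.9B was at 380.1, 392 and 379.9 RPM in the lines, against 623 RPM in NT (log2 fold change -0.70 ± 0.14, adjusted p = 0.0417). The DnaJ-like gene Os05g0427900 was lower, at 4.98, 4.31 and 4.86 RPM in the lines, against 12.7 RPM in NT (log2 fold change -1.26 ± 0.17, adjusted p = 0.0106). Antioxidant enzymes had 4 of 136 members higher and 1 lower (3.68%, against 3.79% of all tested genes). OsGR2, a cytosolic glutathione reductase, was at 107, 123 and 120.2 RPM in the lines, against 69.7 RPM in NT (log2 fold change 0.73 ± 0.13, adjusted p = 0.0295), and the thioredoxin-like gene Os03g0326500 at 45.8, 63.5 and 53.02 RPM in the lines, against 114 RPM in NT (log2 fold change -1.07 ± 0.18, adjusted p = 0.0239). GRX9, a glutaredoxin, was at 78.7, 77.3 and 76.7 RPM in the lines, against 30.4 RPM in NT (log2 fold change 1.32 ± 0.15, adjusted p = 0.00586), and its root log2 fold change was 1.42 ± 0.15. Glutathione S-transferases had 1 of 49 members higher (2.04%) and class III peroxidases 2 of 62 higher and 1 lower (4.84%). Antioxidant genes past the threshold numbered 2 higher and 1 lower with quantile normalization, 6 and 3 without line 13, and 2 and 0 without line 19. Peroxidases past it numbered 0 higher and 1 lower with TMM rescaling, 0 and 1 with quantile normalization, and 2 and 3 without line 13. HSP17.9B did not pass without line 13 (adjusted p = 0.0602), without line 15 (0.0593) or without line 19 (0.0746). OsGR2 (adjusted p = 0.0559) and Os03g0326500 (0.0620) did not pass without line 19.

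Resistance-type genes with NB-ARC or leucine-rich repeat domains, which recognise pathogens, changed in both directions: 11 of 202 were higher and 9 lower. XA39 was at 0.803, 0.974 and 1.55 RPM in the lines, against 24.8 RPM in NT (log2 fold change -3.63 ± 0.23, adjusted p = 0.000531). RPR1 was at 0.258, 0.361 and 0.182 RPM in the lines, against 4.29 RPM in NT (log2 fold change -2.06 ± 0.18, adjusted p = 0.00194). Both were far below NT in every line. Os11g0639600 was at 6.78, 6.19 and 7.75 RPM in lines 13, 15 and 19 and was listed at 0 in NT (adjusted p = 0.000259). Of the 20 changed genes 8 lie in the chromosome segments described at the end. Resistance-type genes past the threshold numbered 7 higher and 8 lower with quantile normalization and 6 and 8 without line 19. In roots 9 members of the list were higher and 8 lower. Receptor-like kinases, of which several sense pathogens or wounding at the cell surface, had 5 of 118 members higher and 1 lower. OsCrRLK1L7 was at 29.8, 27.04 and 31.1 RPM in the lines, against 12.6 RPM in NT (log2 fold change 1.16 ± 0.14, adjusted p = 0.00791) and WAK14, a wall-associated kinase, at 10.8, 15.6 and 6.85 RPM in the lines, against 2.3 RPM in NT (log2 fold change 1.80 ± 0.38, adjusted p = 0.0486). OsSERL5, annotated as a receptor-associated kinase of the brassinosteroid pathway, was lower, at 7.2, 5.74 and 5.44 RPM in the lines, against 12.9 RPM in NT. Receptor-like kinases past the threshold numbered 3 higher and 0 lower without line 19. WAK14 did not pass without line 13 (adjusted p = 0.0702) or with TMM rescaling (0.0615). OsSERL5 did not pass without line 15 (adjusted p = 0.0624) or without line 19 (0.0721).

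Pathogenesis-related proteins, chitinases and protease inhibitors had 5 of 117 members higher, the factor ERF101 among them, and 3 lower. C10501 (Os01g0860500), similar to the chitinase hevamine, was at 33.4, 37.5 and 27.1 RPM in the lines, against 8.27 RPM in NT (log2 fold change 1.85 ± 0.18, adjusted p = 0.00319), and the cystatin gene Os03g0429000, whose kind inhibits cysteine proteases, at 107, 107 and 101 RPM in the lines, against 35.5 RPM in NT (log2 fold change 1.54 ± 0.11, adjusted p = 0.000685). DIP3, a chitinase-like xylanase inhibitor, was lower, at 97.1, 96.3 and 112 RPM in the lines, against 258 RPM in NT (log2 fold change -1.33 ± 0.19, adjusted p = 0.0131). In leaves and roots the effects on C10501 and Os03g0429000 differed, by 1.83 ± 0.25 (adjusted p = 0.0456) and 1.48 ± 0.15 (adjusted p = 0.0178). Diterpenoid phytoalexins are antimicrobial compounds of rice, and 1 of 14 genes of their synthesis passed. This was CYP71Z6, a cytochrome P450, at 23.2, 23.9 and 25.3 RPM in the lines, against 7.6 RPM in NT (log2 fold change 1.55 ± 0.15, adjusted p = 0.00307). The other members did not pass: 13 of the 14 log2 fold changes were positive, with a median of 0.57, and the median was 0.27, 1.09 and 0.14 in lines 13, 15 and 19, and was highest in line 15. Of all tested genes 62.9% had a positive log2 fold change. Only 6 of the 14 members had a leaf mean of at least 1 RPM, and 2 had an unadjusted p under 0.05 (limma). CYP71Z2 was at 60.6, 112 and 66.96 RPM in the lines, against 48.3 RPM in NT (adjusted p = 0.361).

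In the metabolism lists 4.55% of tested genes changed, near the 3.79% of all tested genes. Of these lists, that of lipids and wax had 9 of 243 genes higher and 4 lower. Lipid genes past the threshold numbered 14 higher and 6 lower without line 13. OsCER1, an enzyme of the alkane branch of cuticular wax synthesis, was at 20.4, 18.2 and 12.3 RPM in the lines, against 0.317 RPM in NT (log2 fold change 3.74 ± 0.26, adjusted p = 0.000652). Of 5 tested epidermis and guard cell markers this was the 1 to pass. The summed level of that list was 63.6, 64.6 and 60.3 RPM in the lines, against 43.5 RPM in NT. Most of that difference came from OsCER1 itself. The guard cell anion channel SLAC1 was at 13.9, 15.1 and 14.7 RPM in the lines, against 15.3 RPM in NT. GELP77, a GDSL lipase, was at 9.51, 17.8 and 9.26 RPM in the lines, against 1.57 RPM in NT (log2 fold change 2.301 ± 0.32, adjusted p = 0.0123). Among nitrogen genes OsCAT1, similar to a cationic amino acid transporter, was at 49.1, 55.5 and 31.2 RPM in the lines, against 8.96 RPM in NT (log2 fold change 2.18 ± 0.35, adjusted p = 0.0198). OsHT, an amino acid transporter, was at 33.5, 83.5 and 53.9 RPM in the lines, against 12.3 RPM in NT (log2 fold change 2.03 ± 0.40, adjusted p = 0.0402). Phosphate starvation genes had 2 of 42 members higher, with the transporter PT8 at 47.7, 77.4 and 66.4 RPM in the lines, against 25.2 RPM in NT (log2 fold change 1.28 ± 0.25, adjusted p = 0.0394). Iron homeostasis had 0 of 37 members higher and 2 lower. PEZ2, a phenolics efflux transporter, was at 17.3, 17.9 and 16.5 RPM in the lines, against 26.6 RPM in NT (log2 fold change -0.60 ± 0.12, adjusted p = 0.0403). The other was NAS3, a nicotianamine synthase that makes a chelator of iron, at 5.004, 7.06 and 4.51 RPM in the lines, against 21.8 RPM in NT (log2 fold change -1.82 ± 0.22, adjusted p = 0.00739). Phosphate genes past the threshold numbered 1 higher and 0 lower with quantile normalization and 0 and 0 without line 19. Iron genes past it numbered 0 higher and 1 lower without line 15 and 0 and 1 without line 19. PEZ2 did not pass without line 13 (adjusted p = 0.0542), without line 15 (0.0508) or without line 19 (0.0670). OsHT (adjusted p = 0.0967) and PT8 (0.0931) did not pass without line 19.

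Few protein synthesis genes changed. Of 319 ribosomal protein genes and annotated relatives 1 was higher and 1 lower, of 109 translation factors and tRNA synthetases 0 (limma; 9 at an unadjusted p under 0.05). Ribosomal genes past the threshold numbered 1 higher and 8 lower without line 13 and 0 and 1 without line 15. The ribosomal median was -0.04, -0.05 and 0.36 in lines 13, 15 and 19, so line 19 stood apart from the other 2. Of 48 proteasome genes 2 were higher, Os06g0176000 (OsPAC1) and Os06g0177100, both annotated as subunit alpha type 4. Both were at 11.1, 10.3 and 12.2 RPM in the lines, against 3.96 RPM in NT (log2 fold change 1.29 ± 0.14, adjusted p = 0.00567). They had identical values in every library, so the 2 loci cannot be told apart, and both lie in a chromosome segment described below.

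Among genes with a leaf mean of at least 50 RPM, the largest changes included several outside these lists. The lists were matched by symbols and words, so a gene outside them can still be of a family counted above. The class III peroxidase list, with a largest log2 fold change of 1.39, does not hold the peroxidase gene POX5.1 given below. The counts of such families may therefore miss members. LP2 (Os02g0615800), a protein kinase gene, was at 273, 400.1 and 323 RPM in the lines, against 8.53 RPM in NT (log2 fold change 5.11 ± 0.61, adjusted p = 0.00775). PSK3, a precursor of the peptide hormone phytosulfokine, was at 145, 141 and 98.7 RPM in the lines, against 25.2 RPM in NT (log2 fold change 2.28 ± 0.25, adjusted p = 0.00573), and the peroxidase gene POX5.1 at 633, 481 and 468 RPM in the lines, against 144 RPM in NT (log2 fold change 1.85 ± 0.18, adjusted p = 0.00319). POX5.1 was listed at 0 in all root libraries. Among genes lower in the lines was OsBURP02, a BURP domain protein, at 26.3, 22.7 and 19.8 RPM in the lines, against 201 RPM in NT (log2 fold change -3.08 ± 0.54, adjusted p = 0.0275). CHS, a chalcone synthase of flavonoid synthesis, was at 179.8, 122 and 74.4 RPM in the lines, against 471 RPM in NT (log2 fold change -1.99 ± 0.40, adjusted p = 0.0434). Os03g0310800, similar to a calcium-binding protein of the hypersensitive reaction, was at 29.7, 34.5 and 35.9 RPM in the lines, against 128 RPM in NT (log2 fold change -1.92 ± 0.13, adjusted p = 0.000652). Os03g0764600, a homeodomain-like protein, was at 36.3, 43.4 and 37.2 RPM in the lines, against 94.8 RPM in NT (log2 fold change -1.27 ± 0.16, adjusted p = 0.00975). In all of these the lines did not overlap with NT. CHS (adjusted p = 0.0664) did not pass without line 15. OsBURP02 (adjusted p = 0.0802) did not pass without line 19.

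The changed genes were unevenly spread over the chromosomes. On chromosome 11, 94 of 1206 tested genes changed in leaves (7.79%), against 2.62% to 4.44% on each of the other chromosomes. Genes that changed in the same direction in leaves and roots gathered in 5 stretches, defined after their values were seen as runs of loci where at least 4 of 40 consecutive tested loci were called alike in both tissues. These segments ran from Os02g0614500 to Os02g0618200, Os06g0170500 to Os06g0177300, Os09g0330000 to Os09g0358000, Os11g0225300 to Os11g0241700 and Os11g0515500 to Os11g0605100. They held 335 tested genes, of which 72 changed in leaves (21.5%), and 8.63% of all leaf calls. Outside them 762 of 21656 genes changed (3.52%). Each segment was chosen by its changed genes and cut to the first and last gene called alike. The higher share inside therefore follows from the rule and is no separate result. LP2, GRX9 and OsPRR1 lie in the first, the proteasome pair in the second, RPR1 in the fourth, and CHS, FKF1 and XA39 in the fifth. The cause of the clustering was not tested.

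In roots 256 genes passed (1.16%), and 101 genes passed in both tissues in the same direction, which is 12.1% of the leaf and 39.5% of the root genes, whereas 2 passed in opposite directions. The leaf and root effects themselves differed in 84 of 21991 genes (0.382%). NAS3, lower in leaves, was 1 of the genes of opposite direction, with a log2 fold change of 1.44 ± 0.22 in roots (adjusted p = 0.0270) and a difference of -3.27 ± 0.30 (adjusted p = 0.0139). OsCER1 was another gene whose effects differed, with a root log2 fold change of 0.01 ± 0.26 and a difference of 3.74 ± 0.36 (adjusted p = 0.0164). OsCER1 was at no more than 0.00806 RPM in any root library, so this difference is in effect its leaf change. For most named genes of the clock, hormone and chromatin lists the difference between the tissues did not pass, which does not show that the tissues respond alike.

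**Figure D5:**
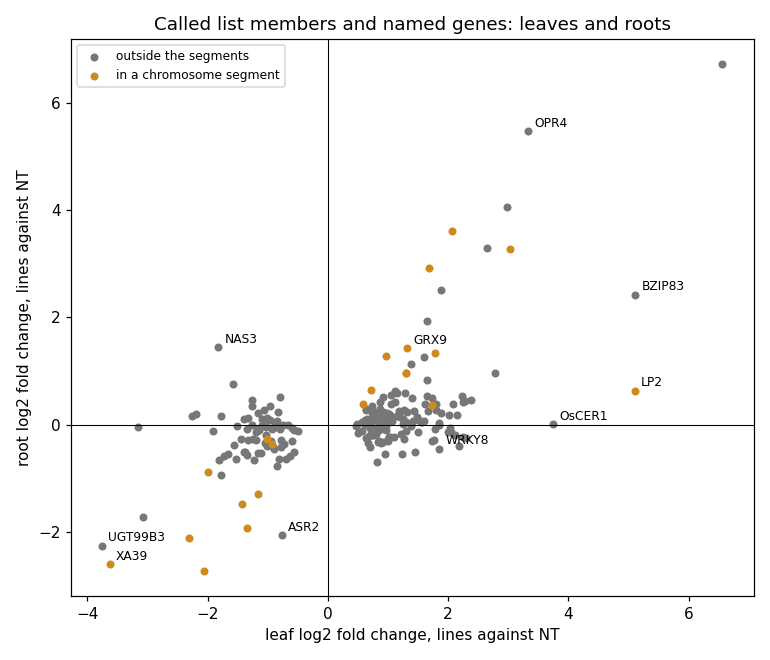
Root against leaf log2 fold change, lines against NT, for 233 genes past the threshold in leaves that belong to a list or were named by their size, with orange points for the 21 genes in the chromosome segments. Most points lie near 0 on the root axis, and all 21 orange ones have the same sign in leaves and roots, with LP2 much nearer to 0 in roots. The segments were chosen by genes called alike in both tissues, which favours a shared sign.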

How the data were processed

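Leaf and root RNA of rice was profiled by Lasy-Seq in 8 libraries, and the authors deposited 1 table with 1 column per sample. Per the series' design text and the values, the deposited signal is reads per 1000000 (RPM), scaled by the authors within each of 3 classes of rows (genes, rRNA and spike-in controls). Trimmomatic 0.39, Bowtie 1.2.3, RSEM 1.2.21 and the build IRGSP 1.0 are named in the submitters' processing notes, with no roles given. Most values were not whole multiples of 1 read, so no test on counts was run. Depth was estimated by taking the most frequent value above 0 as 1 read. Adding back 0.134% to 0.146% of a gene's reads summed over the libraries raised the share of low values within 0.1 of a whole read to between 46.5% and 53.7%, against 9.47% to 12.3% as deposited, so a 0 is given as listed at 0.

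The log2(RPM + 1) values of genes averaging 1 RPM or more were fitted with limma 3.58.1 (R 4.3.3; 4 group means, 4 residual degrees of freedom, eBayes with a trend, two-sided, Benjamini-Hochberg). NT was assumed to vary like the lines. The labels do not say that samples came from separate cultures, so p-values cover only the spread of these libraries. That spread holds differences between the 3 lines together with technical ones, which cannot be told apart. No spread within NT was measured. An exact permutation of 3 samples against 1 cannot go below 0.25 and was not used. The fit was run on simulated data that gave each gene the same spread in every library, so the assumption on NT was not tested there. Figures were drawn with Python 3.11.15.

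Each line gave both a root and a leaf sample, which pairs them, per the labels. Deviations from the group means correlated between tissues at 0.20, -0.01 and 0.15 for lines 13, 15 and 19, and a fit with a replicate block (estimated correlation 0.00483) called 834 genes, as without it.

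List members were found by 269 symbols, of which 220 matched 1 locus, and by words of the annotation, with some patterns corrected after the annotation was seen. The members, lists and tests were chosen with earlier results of these data known. The chromosome segments follow 1 of 2 rules that were looked at. The genes named were OsbZIP83, the 10 largest changes in each direction at a leaf mean of at least 50 RPM, up to 4 changed members per list and direction, the highest members where fewer than 2 changed, and any member of a list of single symbols. OsPP2C06, OsPP2C72, SAPK2, REM4.1, BZIP12, NAC8, CDPK4, CDPK24, OsFBK12 and Os01g0153300 were named after their values were seen. Values identical to another gene's were held by 117 tested genes, 12 of them changed in leaves. Coordinates and sequences were not used here.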

Additional observations from a re-analysis of the deposited data

Results flagged for a closer look

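The effect in leaves (lines against NT) differed from that in roots, by limma's test of the difference with Benjamini-Hochberg adjustment, in 18 of the genes named. The leaf log2 fold change minus the root one was 2.70 for OsbZIP83, 3.74 for OsCER1, 2.305 for WRKY8, 2.04 for STR6 and 1.96 for UGT74H4, similar to an indole-3-acetate glucosyltransferase. It was 1.87 for the kinase-like Os03g0125600, 1.85 for POX5.1, 1.83 for C10501, 1.497 for CYP71Z6, 1.48 for the cystatin Os03g0429000, 1.33 for LOX1 and 1.28 for CDPK13. The difference was negative for 6 genes: -3.27 for NAS3, -3.12 for the resistance response gene Os11g0214900, -1.79 for Os03g0310800, -1.73 for Os03g0764600, -1.49 for the glycosyltransferase UGT99B3 and -1.38 for the histone H1 gene Os03g0799000. POX5.1 was listed at 0 in all root libraries, and OsCER1, CYP71Z6, UGT74H4 and Os11g0214900 were at no more than 0.156 RPM in any of them, so for these 5 the difference is in effect the leaf change. The adjusted p-values ran from 0.0139 to 0.0475, and NT was 1 library in each tissue.

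Chloroplast rRNA, which lies outside the gene values, made up 73.2%, 74.7% and 74.5% of the rRNA values in leaves of lines 13, 15 and 19, against 71.1% in NT leaves. With 1 NT library the difference was not tested.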

How the results depend on the processing

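The count of 834 changed leaf genes stayed between 633 and 1178 under the other scalings, pseudocounts, filters and left-out lines, and was 834 with the replicate block, but fell to 16 with leaf libraries alone (9 higher, 7 lower, and 0 of the 219 list members; 2 residual degrees of freedom). Genes higher in the lines numbered 585, 379 with quantile normalization (316 lower) and 336 with no filter (356 lower, so that the larger direction turned). Genes lower numbered 249, and 209 to 414 with 1 line left out, the most without line 13. List members changed numbered 117 with no filter. The 84 genes whose leaf and root effects differed became 55 with quantile normalization, 161 with a pseudocount of 5 RPM, 245 with no filter, 31 with a filter at 5 RPM, 30 with a filter at 1 RPM over leaf libraries, 92 with the replicate block, and 17 (without line 19) to 131 (without line 13) with 1 line left out. The 410 genes of 2-fold change became 913 at a minimum of 1 RPM, 170 at 20 RPM, and 454 to 622 with 1 line left out. The cause was not tested. Without the genes of the chromosome segments, an alternative chosen after seeing the data, 762 genes changed. Of 188 named genes past the threshold, 165 still passed with TMM rescaling, 144 with quantile normalization, 77 with no filter, 169, 142 and 109 without lines 13, 15 and 19, and 1 with leaf libraries alone. No named gene past the threshold changed sign in the settings where it was tested, but the larger direction turned in 15 of 58 lists under a scaling or without 1 line. Depth was about 22600000 to 35700000 gene reads in leaves, and genes of a few reads are limited by it; the single NT library limits every comparison.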

Other observations

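Among genes of secondary metabolism that attach sugars, UDP-glycosyltransferases and related enzymes had 5 of 108 tested members higher in the lines and 5 lower. UGT99B3 was at 1.24, 1.03 and 1.13 RPM in the lines, against 27.7 RPM in NT (log2 fold change -3.75 ± 0.15, adjusted p = 3.6e-05), and its root log2 fold change was -2.27 ± 0.15. UGT74H4 was at 11.6, 14.9 and 11.97 RPM in the lines, against 2.11 RPM in NT (log2 fold change 2.14 ± 0.18, adjusted p = 0.00188). Glycosyltransferases past the threshold numbered 2 higher and 4 lower with TMM rescaling and 1 and 4 with quantile normalization. Cytochrome P450 enzymes had 4 of 145 members higher and 1 lower (3.45%, against 3.79% of all tested genes). P450 genes past the threshold numbered 7 higher and 4 lower without line 13. ESP2, a protein disulfide isomerase-like enzyme matched to the starch list, was at 307, 286 and 319.7 RPM in the lines, against 122 RPM in NT (log2 fold change 1.31 ± 0.12, adjusted p = 0.003102). The starch and sucrose list had 3 of 106 members higher and 0 lower (2.83%, against 3.79% of all tested genes). ESP2, by its name an enzyme acting on proteins, was 1 of the 3. Starch and sucrose genes past it numbered 1 higher and 0 lower with TMM rescaling, 1 and 0 with quantile normalization, 5 and 3 without line 13, and 1 and 0 without line 19. AGPL3, similar to ADP-glucose pyrophosphorylase, which makes the precursor of starch, was at 16.96, 26.2 and 19.7 RPM in the lines, against 7.14 RPM in NT (log2 fold change 1.41 ± 0.29, adjusted p = 0.0454). AGPL3 did not pass without line 15 (adjusted p = 0.0570), without line 19 (0.0934) or with TMM rescaling (0.0539).

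Ubiquitin ligase genes with F-box, U-box or RING domains had 9 of 482 members higher and 7 lower. This share, 3.32%, was near the 3.79% of all tested genes. Ligase genes past the threshold numbered 7 higher and 9 lower with quantile normalization. OsRING-1 was at 49.5, 47.98 and 38.4 RPM in the lines, against 8.73 RPM in NT (log2 fold change 2.24 ± 0.27, adjusted p = 0.00789). The RING-H2 gene Os02g0686100 was at 2.54, 2.23 and 1.22 RPM in the lines, against 9.26 RPM in NT (log2 fold change -1.80 ± 0.27, adjusted p = 0.0161). Cell wall genes had 3 of 146 members higher and 4 lower (4.79%). The beta-expansin EXPB3, a wall-loosening protein, was at 18.4, 18.7 and 17.1 RPM in the lines, against 27.3 RPM in NT (log2 fold change -0.57 ± 0.10, adjusted p = 0.0327). Cell wall genes past the threshold numbered 8 higher and 5 lower without line 13 and 9 and 2 without line 15. Lignin, dirigent and laccase genes had 1 of 45 higher and 1 lower (4.44%). Lignin genes past it numbered 1 higher and 4 lower without line 13, 1 and 0 without line 15, and 1 and 4 without line 19. None of 14 aquaporins and 5 terpene synthases passed (limma), with 4 and 1 at an unadjusted p under 0.05, and the abundant aquaporin PIP2;7 was at 5097, 3597 and 4017 RPM in the lines, against 3585 RPM in NT.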
